A study of Mus musculus with 16 samples.

Results

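The colonic bacteria of mice lacking Mertk (KO) were compared after 7 days of dextran sulfate sodium (DSS) and after 7 days of plain water. The comparison used 8 of the study's 16 libraries, 4 from MERTK-KO+DSS mice and 4 from MERTK-KO mice on water, each from a separate mouse per the labels. The other 8 libraries, 4 from wild-type (WT) mice on DSS and 4 from WT mice on water, entered the same model. Their levels are given beside some KO values, and the DSS effects of the genotypes are compared only by the interaction test. All mice were on the C57BL/6J background, specific-pathogen-free and 8 to 10 weeks old, and drank sterile water alone or with 2.5% (w/v) DSS of 36 to 50 kDa, which damages the lining of the colon. The distal colon was taken on day 8. The labels do not say how the Mertk allele was made. They name no cage or litter either, so cage and group cannot be told apart. Counts of 16S sequences measure neither Mertk nor host cells, so genotype and tissue could not be checked against markers.

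In all, 1901 distinct 16S rRNA gene sequences were counted (amplicon sequence variants, ASVs), with 96469 counts in each library. Of these ASVs, 1056 had at least 10 counts in total and counts in at least 3 of the 16 libraries, and they held 98.4% of the counts of the KO mice. Of the 1056, 743 had a count in a KO mouse. The other 845 were not tested. Summed by genus, 122 of 146 groups passed the same filter (107 with a count in a KO mouse), and summed by family, 57 of 72 passed (49 with a count in a KO mouse). An ASV with no genus name was added to an "unclassified" group of the lowest rank it was named at. KO water mouse 4 stood apart from the other water mice in 8 of the named values, and the values of these taxa without it are given beside their results. Values are percent of a mouse's counts, and a share can change because other taxa changed. A count of 0 allows a share of up to 0.00311%, or 3 counts of a library, which covers counting error only. Adjusted p-values are from edgeR's quasi-likelihood test with Benjamini-Hochberg adjustment over all features of a rank, and a taxon that passed an FDR of 0.05 is said to have risen or fallen.

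The mouse colon is populated mainly by obligate anaerobes. Bacteroidota such as Muribaculaceae, Rikenellaceae and Prevotellaceae break down plant and host glycans, and many Lachnospiraceae and Oscillospiraceae ferment fibre to short-chain fatty acids, among them butyrate, a fuel of the colonic epithelium. Other bacteria live in or on the mucus layer, and some, such as Escherichia, can respire oxygen or nitrate, which are more available in an inflamed gut. Mertk, a receptor tyrosine kinase of macrophages, serves in the clearance of dying cells.

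The largest phyla overlapped between the groups. Bacteroidota held 35.9%, 41.1%, 38.2% and 49.6% in KO DSS mice 1 to 4, against 38.3%, 39.0%, 42.9% and 43.6% in KO water mice 1 to 4. Firmicutes held 51.7% ± 5.25 on DSS and 55.3% ± 3.02 on water (SD, n = 4 each, exact permutation p = 0.286). Of 11 phylum-level groups, 4 did not overlap between DSS and water, which is the smallest two-sided exact permutation p that 4 against 4 mice can give (p = 0.0286), and none passed adjustment over the phyla (lowest adjusted p = 0.0786, which is what 4 of 11 groups at that smallest p give). Of these, Deferribacterota held 2.88% ± 1.04 on DSS and 0.39% ± 0.177 on water, and Verrucomicrobiota 0.767% ± 0.427 and 0.0013% ± 0.00155. Campilobacterota held 0.182% ± 0.0346 and 0.000777% ± 0.00155, and sequences without a phylum 0.00726% ± 0.0111 and 0.126% ± 0.0418, in the same order. In KO mice the shares of Campilobacterota were those of Helicobacter, which on DSS was at 3.96% of its level in WT DSS mice. Actinobacteriota held 0.093% ± 0.0553 on DSS and 0.888% ± 0.664 on water (exact permutation p = 0.0571), Proteobacteria 0.908% ± 0.215 and 0.418% ± 0.294 (exact permutation p = 0.0857) and Desulfobacterota 2.02% ± 0.477 and 1.85% ± 0.558 (exact permutation p = 0.657). Cyanobacteria held 0.103% ± 0.128 and 0.0218% ± 0.0197 (exact permutation p = 0.143), and Patescibacteria 0.168% ± 0.0688 and 0.0899% ± 0.0915 (exact permutation p = 0.257).

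On DSS, 17 of 57 families rose (29.8%) and 7 fell (12.3%), 24 calls in all (42.1%). Among the 122 genera, which include the unclassified groups, 21 rose (17.2%) and 19 fell (15.6%), together 32.8%. Sequences named at no rank, not even a kingdom, count as 1 of the fallen genera and 1 of the fallen families. They had no count on DSS and 0.105% ± 0.0379 on water (adjusted p = 0.00154 as a genus). Among the 1056 ASVs, 76 rose (7.20%) and 65 fell (6.16%), together 141 (13.4%). These shares are over all taxa tested. All but 743 ASVs, 107 genera and 49 families had no count in any KO mouse and could not be called. Without KO DSS mouse 3 or 4, or without KO water mouse 2 or 3, 82, 79, 83 and 88 ASVs passed, while 33 to 42 genera passed whichever KO mouse was left out. The 76 risen ASVs held 25.4% ± 2.01 of the counts on DSS and 1.96% ± 0.362 on water. The 65 fallen ASVs held 1.19% ± 0.334 on DSS and 29.2% ± 4.07 on water. These shares describe ASVs chosen by the same test and carry no test of their own.

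Many of the ASVs seen in one KO group were not seen in the other. Of 1132 ASVs with a count in a KO mouse, 353 were found only on DSS and held 8.46% ± 0.788 of the counts there, while 315 were found only on water and held 21.4% ± 2.90 there. The 464 ASVs seen in both groups held the remaining 91.5% of counts on DSS and 78.6% on water. Only 171 were present in all 8 mice, with 69.6% of the counts on DSS and 56.3% on water. Of the ASVs seen only on DSS, 69 were in all 4 DSS mice (6.05% of counts), led by unclassified Lachnospiraceae (59 of the 353, 1.35%), Turicibacter (5, 1.04%) and Clostridia_UCG-014 (27, 1.00%) in the whole set. Of those seen only on water, 43 were in all 4 water mice (16.0% of counts), and the whole set was led by unclassified Lachnospiraceae (78 of the 315, 5.55%), unclassified Muribaculaceae (11, 5.01%) and Lachnospiraceae_UCG-001 (6, 2.90%). Of the 315 seen only on water, 230 were also absent from every WT mouse and held 12.7% of the water counts. Of the 353 seen only on DSS, 189 were absent from every WT mouse and held 1.87% of the DSS counts, and 152 were present in a WT DSS mouse and held 6.11%.

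Counts were spread less evenly over ASVs on DSS. Observed ASVs numbered 528.2 ± 11.3 on DSS and 492 ± 8.83 on water (exact permutation p = 0.0286, but 0.0571 without KO water mouse 2), a difference that turned when low ASVs shared with WT DSS mice were set to 0, as given further on. The 10 most abundant ASVs of a mouse held 38.0% ± 2.19 of its counts on DSS and 28.6% ± 2.72 on water, and 18.8 ± 1.71 and 27.8 ± 3.86 ASVs made up 50% of the counts. Evenness (Pielou's index, 1 where all ASVs are equally abundant) was 0.742 ± 0.00498 on DSS and 0.797 ± 0.00999 on water (exact permutation p = 0.0286 for each of these 3 measures). The Shannon index of ASVs was lower on DSS by 0.289 and that of genera higher by 0.294 (exact permutation p = 0.0286 each). The leading ASV of DSS mice 2, 3 and 4 was ASV2, a Prevotellaceae_UCG-001, at 8.90%, 9.26% and 11.6%. Pairs of DSS mice lay at a mean Bray-Curtis distance (0 for identical, 1 for no shared ASV) of 0.391, pairs of water mice at 0.445, and pairs across the groups at 0.666 (R2 0.536, exact permutation p = 0.0286). With counts summed by genus, pairs of DSS mice lay at 0.232, pairs of water mice at 0.214 and pairs across the groups at 0.374 (R2 0.58, exact permutation p = 0.0286).

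**Figure D1:**
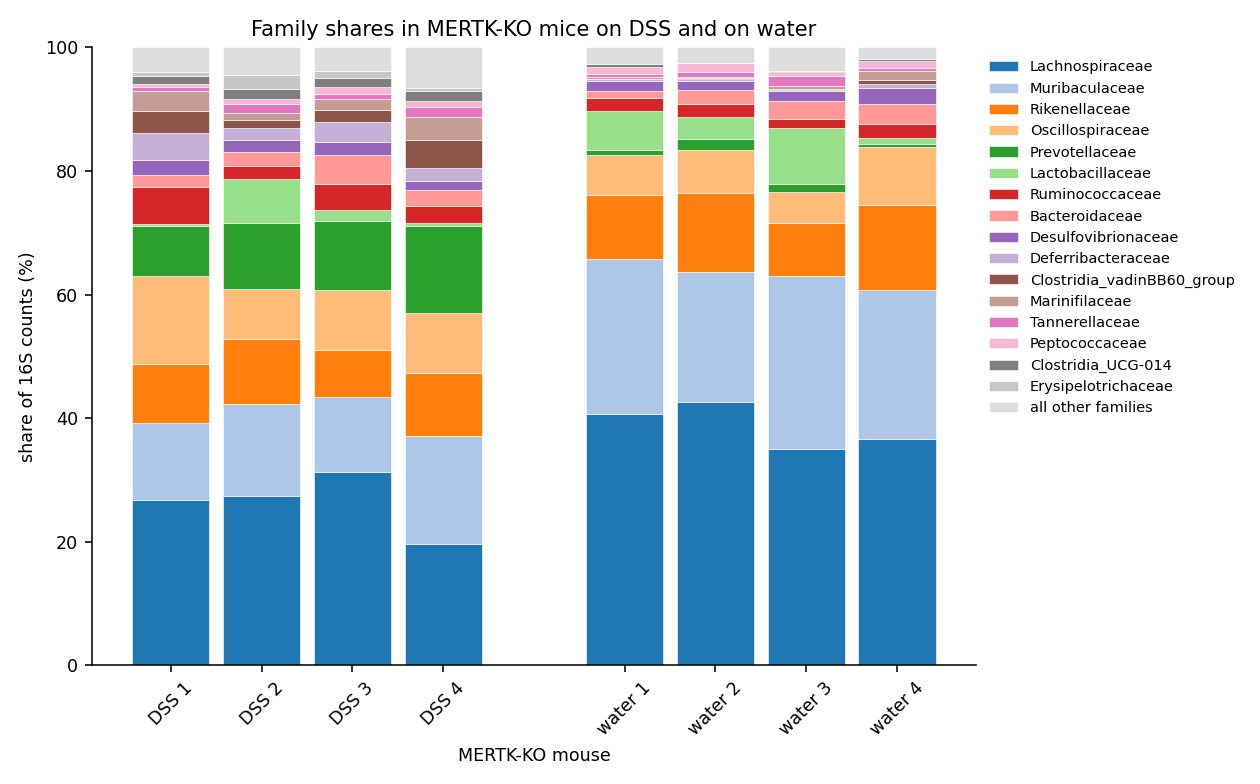
Share of counts (percent) of the leading families in each KO mouse as stacked bars, DSS mice left of water mice. Prevotellaceae held 8.19% to 14.1% on DSS and 0.445% to 1.75% on water, and Muribaculaceae and Lachnospiraceae were lower in all 4 DSS mice than in any water mouse.

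A few large families carried most of the shift between families. Prevotellaceae, anaerobes that break down plant polysaccharides, had 8.19%, 10.7%, 11.2% and 14.1% of counts in KO DSS mice 1 to 4, against 0.87%, 1.75%, 1.34% and 0.445% in KO water mice 1 to 4. The lowest DSS mouse had over 4 times the share of the highest water mouse. The family rose 10.0-fold (log2 fold change 3.32, SE 0.396, adjusted p = 3.91e-07). Muribaculaceae, glycan degraders that dominate the mouse gut, had 12.4%, 14.9%, 12.2% and 17.5% in DSS mice, against 25.1%, 21.0%, 27.9% and 24.1% in water mice. These ranges did not overlap, and the family fell 1.72-fold (log2 fold change -0.78, SE 0.171, adjusted p = 0.000792). Lachnospiraceae, fibre fermenters that include butyrate producers, had 26.8%, 27.3%, 31.2% and 19.7% in DSS mice, against 40.7%, 42.6%, 35.1% and 36.7% in water mice. They too did not overlap and fell 1.48-fold (log2 fold change -0.56, SE 0.147, adjusted p = 0.0031), a call lost with TMM scaling (adjusted p = 0.195). On centred log-ratios, where the median family shifts by -0.79 (0.21 with library totals), 12 families rose and 17 fell.

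Other abundant families did not pass. Rikenellaceae, the family of the bile-tolerant Alistipes, held 9.49% ± 1.33 on DSS and 11.4% ± 2.35 on water (adjusted p = 0.489, but 0.0121 and lower on centred log-ratios). Oscillospiraceae held 10.4% ± 2.66 and 6.90% ± 1.80 (adjusted p = 0.127), and Ruminococcaceae 3.77% ± 1.72 and 1.94% ± 0.309 (adjusted p = 0.0539). Ruminococcaceae passed without KO DSS mouse 2 (adjusted p = 0.025), with TMM scaling (0.041) and with a filter of at least 6 libraries (0.0419). The direction of both families turned on centred log-ratios. Tannerellaceae held 1.13% ± 0.488 and 0.886% ± 0.518 (adjusted p = 0.684), and Peptococcaceae 0.821% ± 0.212 and 1.09% ± 0.266 (adjusted p = 0.645, but 0.0333 with DESeq2 and 0.00514 on centred log-ratios). Eggerthellaceae fell to 0.0684% ± 0.0436 on DSS, against 0.30% ± 0.157 on water (adjusted p = 0.0468), a call lost in 11 of 17 alternatives, among them without any 1 of KO DSS mice 1, 3 and 4 and KO water mice 1, 2 and 3 (adjusted p = 0.0634 to 0.128).

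**Figure D2:**
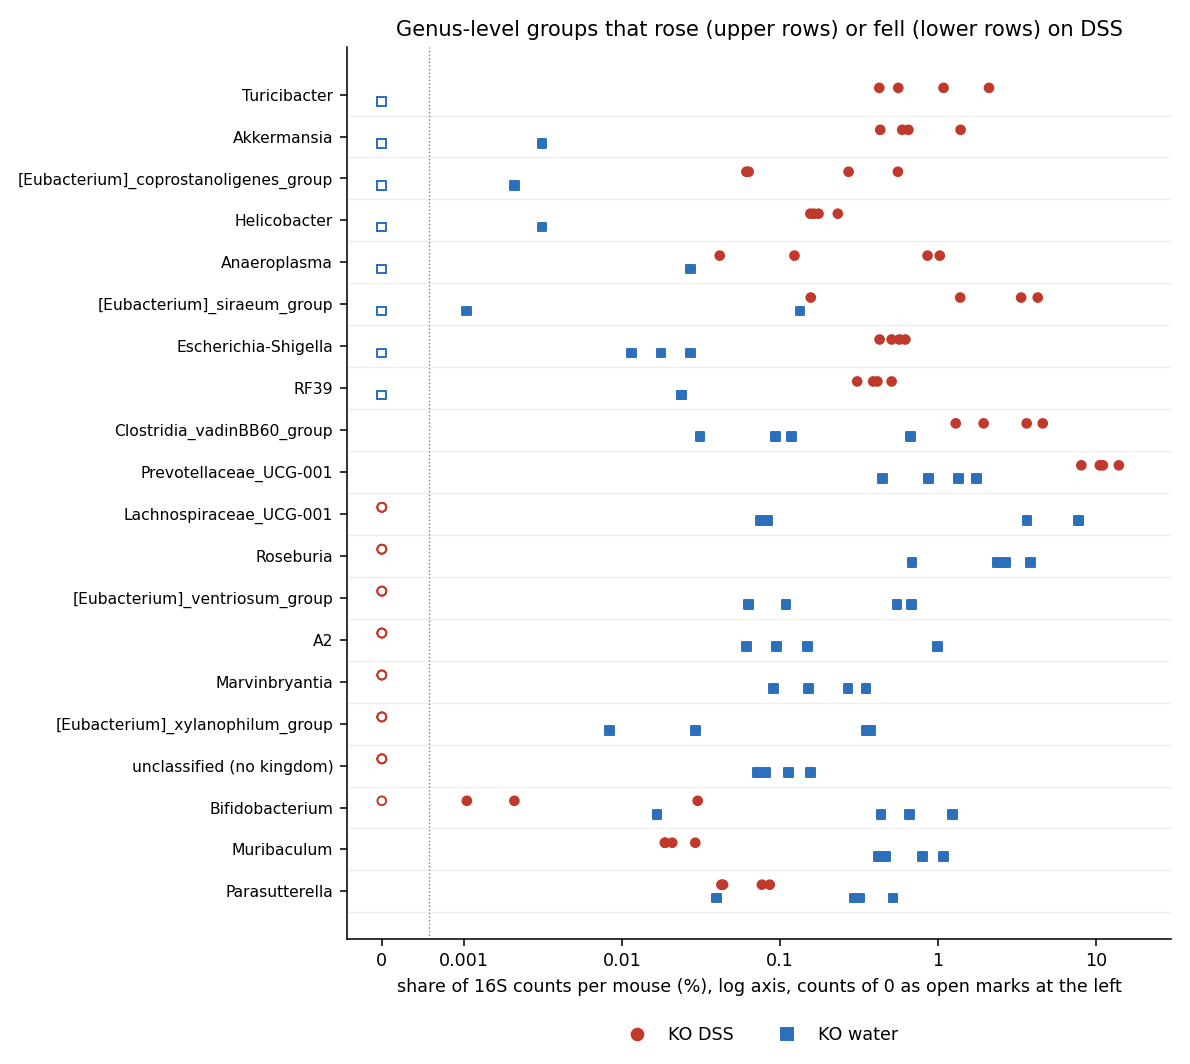
Share of counts on a log scale for genera that rose or fell, one point per KO mouse, DSS mice and water mice marked apart, with mice at 0 as open marks at the left edge. Turicibacter, at 0.425% to 2.11% on DSS, had no count on water, and Roseburia, at 0.686% to 3.86% on water, had none on DSS.

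Genera that live in or on mucus were among those that rose. Akkermansia, which feeds on mucin, had 0.431%, 0.65%, 0.594% and 1.39% in KO DSS mice 1 to 4, against 0%, 0%, 0.00311% and 0% in KO water mice 1 to 4. Every DSS mouse was far above the only water mouse with counts (adjusted p = 7.75e-05). Its single DSS sequence, ASV102, had no count on water and was at least 247-fold higher. Mucispirillum, which lives in the mucus layer, had 4.21%, 2.01%, 3.20% and 2.11% in DSS mice, against 0.40%, 0.318%, 0.213% and 0.628% in water mice. It rose 7.40-fold with no overlap (log2 fold change 2.89, SE 0.806, adjusted p = 0.0101). Helicobacter, spiral bacteria of the mucus and crypts, had 0.155%, 0.175%, 0.232% and 0.164% in DSS mice, against 0%, 0%, 0% and 0.00311% in water mice (adjusted p = 1.84e-05, at least 58.4-fold higher without water mouse 4), at 3.96% of its level in WT DSS mice (described with the other sequences of that kind). Of the 3 genera listed for mucus and epithelium the remaining one, Candidatus_Arthromitus, the segmented filamentous bacteria that attach to epithelium, had 0.0104%, 0.00726%, 0.00622% and 0.00311% in DSS mice, against 0.208%, 0.0114%, 0.00726% and 0.0726% in water mice. The groups overlapped, and the fall was 11.1-fold (adjusted p = 0.0251). Without water mouse 1 it was 4.51-fold lower (adjusted p = 0.129), and the call was also lost without DSS mouse 2, 3 or 4 and with a replicate block (5 of 17 alternatives). Of 2 mucin degraders tested Akkermansia rose, and Bacteroides held 2.80% ± 1.19 on DSS and 2.42% ± 0.933 on water (adjusted p = 0.835). Over all 122 genera, 17.2% rose and 15.6% fell. The lists here and below were chosen with earlier results of these data known. Their counts beside the shares over all genera are a description and not a test.

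Escherichia-Shigella, facultative anaerobes, was one of 5 oxygen-tolerant genera tested. It had 0.622%, 0.427%, 0.57% and 0.509% in KO DSS mice 1 to 4, against 0%, 0.0176%, 0.027% and 0.0114% in KO water mice 1 to 4. The DSS mice lay close together and above all water mice, a 38.0-fold rise (log2 fold change 5.24, SE 1.08, adjusted p = 0.00124). Staphylococcus, of skin and mucosa, went the other way: it had no count on DSS and 0.0249% on water, at least 8.00-fold lower. The remaining 3 did not pass, where 17.2% of all genera rose and 15.6% fell.

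Turicibacter, of the Erysipelotrichaceae, had 0.561%, 2.11%, 1.09% and 0.425% in KO DSS mice 1 to 4. None of the KO water mice had a count, so it was at least 336-fold higher (adjusted p = 1.84e-05), or at least 222-fold without DSS mouse 2. Nearly all of it was ASV63, with 1.00% ± 0.703 on DSS. Dubosiella, of the same family, had 0.029%, 0.029%, 0% and 0.0332% in DSS mice and no count on water. Of 8 Erysipelotrichales genera tested (6 with a count in a KO mouse), these 2 rose and unclassified Erysipelatoclostridiaceae fell. Over all genera, 17.2% rose and 15.6% fell. The median log2 ratio of the list was 1.40, where over all 122 genera it was 0.

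Prevotellaceae_UCG-001 held nearly all of its family, with 8.10%, 10.6%, 11.1% and 14% in KO DSS mice, against 0.87%, 1.75%, 1.34% and 0.445% in KO water mice (9.93-fold, adjusted p = 0.00021). Its lead sequence ASV2 rose 10.1-fold (adjusted p = 0.00175). ASV39, a second sequence of the genus, had 1.81% ± 0.448 on DSS and 0.203% ± 0.0981 on water, 8.92-fold higher (adjusted p = 0.00477). So both its abundant sequences rose by a similar factor. Alloprevotella, the other member to rise of 3 tested, held 0.0879% on DSS and had no count on water. It was at 3.40% of its level in WT DSS mice, and its call was lost when such low ASVs were set to 0.

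Most of the listed bacteria without a cell wall and groups known mainly from their sequences rose. Of 5 tested 4 rose, where 17.2% of all genera rose, and the median log2 ratio of the list was 3.66. This list of unlike taxa was also chosen with earlier results known, so its count is no test of enrichment. Clostridia_vadinBB60_group had 3.65%, 1.30%, 1.95% and 4.61% in KO DSS mice 1 to 4, against 0.0311%, 0.0933%, 0.118% and 0.671% in KO water mice 1 to 4 (12.6-fold, adjusted p = 0.0036, or 35.6-fold without water mouse 4). Clostridia_UCG-014 had 1.25%, 1.66%, 1.45% and 1.68%, against 0.344%, 0.122%, 0.0798% and 0.314% (7.02-fold, adjusted p = 0.00103). Neither overlapped between the groups. RF39, of the Bacilli, held 0.405% ± 0.0828 on DSS and 0.0119% ± 0.0138 on water (34.0-fold, adjusted p = 0.00448). Anaeroplasma, a wall-less mollicute, had 0.859%, 0.123%, 0.0415% and 1.03% on DSS, and on water a count in mouse 4 only, at 0.027%. It rose 76.1-fold (adjusted p = 0.0104), 50.7-fold without DSS mouse 4 and at least 165-fold without water mouse 4. The fifth member, Gastranaerophilales, did not pass as a group.

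Oscillospirales, the order of Ruminococcaceae and Oscillospiraceae, gave 2 risen genera of 26 tested and none that fell, where 17.2% of all genera rose and 15.6% fell. The [Eubacterium]_siraeum_group, fibre degraders, had 4.29%, 0.157%, 3.37% and 1.38% in KO DSS mice 1 to 4, against 0.134%, 0%, 0% and 0.00104% in KO water mice 1 to 4. The lowest DSS mouse lay just above the highest water mouse. The mean share rose 68.2-fold (adjusted p = 0.0104), and nearly all of the water mean came from water mouse 1. With water mouse 1 left out, the DSS mean is 739 times the 3-count floor, and the water mean lies under it. The [Eubacterium]_coprostanoligenes_group, which takes its name from bacteria that convert cholesterol to coprostanol, had 0.0612%, 0.0632%, 0.558% and 0.272% in DSS mice, against 0.00207%, 0%, 0% and 0% in water mice (adjusted p = 0.000179). All DSS mice were above the water mice, and they ranged widely among themselves. Without DSS mouse 3 its DSS mean is 42.4 times the 3-count floor. Colidextribacter held 2.68% ± 1.10 on DSS and 1.06% ± 0.359 on water (adjusted p = 0.0903). It passed without DSS mouse 2 (adjusted p = 0.0463), with DESeq2 (0.0495) and with only the KO libraries fitted (0.047). Oscillibacter held 3.35% ± 1.93 and 2.21% ± 0.936 (adjusted p = 0.545), unclassified Oscillospiraceae 3.89% ± 0.495 and 3.20% ± 1.05 (adjusted p = 0.636), and unclassified Ruminococcaceae 1.08% ± 0.376 and 1.29% ± 0.132 (adjusted p = 0.786).

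Of 19 Lachnospiraceae genera tested 9 fell and none rose, where 15.6% of all genera fell and 17.2% rose. The median log2 ratio of the list was -1.06. Of the 9 fallen genera, all but Blautia had no count in any DSS mouse. Roseburia, a butyrate producer, had 2.38%, 2.68%, 3.86% and 0.686% in KO water mice 1 to 4 and was at least 772-fold lower on DSS (adjusted p = 0.00016). Lachnospiraceae_UCG-001 was uneven among water mice, at 0.084%, 7.79%, 0.0746% and 3.66%, and was at least 933-fold lower on DSS (adjusted p = 0.00288), or at least 409-fold without water mouse 2. [Eubacterium]_ventriosum_group held 0.55%, 0.109%, 0.0632% and 0.681% in water mice (at least 113-fold lower, adjusted p = 0.000837). For each of these genera every water mouse had counts. A2 (at least 104-fold lower, or 32.8-fold without water mouse 1), Marvinbryantia (at least 69.3-fold) and [Eubacterium]_xylanophilum_group (at least 61.2-fold) were likewise in all 4 water mice and in no DSS mouse, and so, at lower levels and not in every water mouse, were Tyzzerella (a call lost without DSS mouse 3 or water mouse 4, adjusted p = 0.0524 and 0.0604) and Lachnospiraceae_UCG-010. Blautia, an acetate producer, fell to 0.156% ± 0.153 on DSS, against 0.734% ± 0.313 on water (adjusted p = 0.0494). It was 9.16-fold lower without DSS mouse 1, and the call was lost in 10 of 17 alternatives, among them the loss of mouse 2, 3 or 4 from either group (adjusted p = 0.0604 to 0.121). The most abundant members did not pass: unclassified Lachnospiraceae held 14.2% ± 5.51 on DSS and 18.1% ± 2.48 on water (adjusted p = 0.566), and Lachnospiraceae_NK4A136_group 9.58% ± 4.97 and 11.6% ± 5.85 (adjusted p = 0.752). ASF356 held 0.837% ± 0.571 and 0.441% ± 0.271 (adjusted p = 0.55), and GCA-900066575 0.522% ± 0.157 and 0.542% ± 0.557 (adjusted p = 1), or 1.98-fold higher without water mouse 4.

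The listed butyrate producers moved in both directions. Of 10 tested, Roseburia, [Eubacterium]_ventriosum_group and [Eubacterium]_xylanophilum_group fell and Odoribacter rose, 4 calls where 32.8% of all genera were called. All 10 together held 6.67% ± 2.40 on DSS and 6.38% ± 1.00 on water, and their median log2 ratio was 0.30. Odoribacter, of the Bacteroidota, had 3.24%, 1.09%, 1.80% and 3.72% in KO DSS mice 1 to 4, against 0.208%, 0.166%, 0.451% and 1.47% in KO water mice 1 to 4. DSS mouse 2 lay below water mouse 4, so the groups overlapped, and the rise was 4.28-fold (adjusted p = 0.0171), or 8.94-fold without water mouse 4. Butyricicoccus held 0.603% ± 0.573 and 0.313% ± 0.23 (adjusted p = 0.472), 1.02-fold without DSS mouse 4 and 3.03-fold without water mouse 4.

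Muribaculum, a named genus of its family, had 0.0187%, 0.0187%, 0.029% and 0.0207% in KO DSS mice 1 to 4, against 0.463%, 0.80%, 1.09% and 0.422% in KO water mice 1 to 4. It fell 31.9-fold (log2 fold change -4.99, SE 0.851, adjusted p = 0.000241). Unclassified Muribaculaceae fell 1.67-fold to 14.3% ± 2.48, against 23.8% ± 2.76 on water (adjusted p = 0.0104, but 0.137 with TMM scaling and 0.0696 on centred log-ratios). Both members of the family's list thus fell. Bifidobacterium, which ferments sugars to acetate and lactate, had 0%, 0.0301%, 0.00104% and 0.00207% in DSS mice, against 0.435%, 0.658%, 1.24% and 0.0166% in water mice. The ranges overlapped through DSS mouse 2 and water mouse 4. It fell 70.7-fold (adjusted p = 0.00448), 44.6-fold without water mouse 3, and without DSS mouse 2 the water mean is 189 times the 3-count floor. Lactobacillus, the other genus of that list, had 0.289%, 7.07%, 1.86% and 0.422% in DSS mice, against 6.23%, 3.57%, 8.96% and 1.05% in water mice (adjusted p = 0.463). DSS mouse 2 alone stood in the water range's upper part, and without it Lactobacillus was 5.78-fold lower (adjusted p = 0.0408). Parasutterella, an asaccharolytic member of the Proteobacteria, fell 4.73-fold to 0.0622% ± 0.0225, against 0.294% ± 0.197 on water (adjusted p = 0.0248). That call was lost in 6 of 17 alternatives: without DSS mouse 1 or 3 or water mouse 3 (adjusted p = 0.0659, 0.0731 and 0.0844), with TMM scaling (0.0577), with a replicate block (0.0548) and with only the KO libraries fitted (0.0552). Of 6 Coriobacteriia tested, Parvibacter fell and Coriobacteriaceae_UCG-002 rose, each at under 0.02% in both groups. The call of Parvibacter was lost without DSS mouse 3 (adjusted p = 0.0524). Coriobacteriaceae_UCG-002 was at 4.33% of its level in WT DSS mice, and its call was lost when such low ASVs were set to 0.

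Rikenellaceae and Desulfovibrionaceae gave no call in 3 genera each. Alistipes held 6.65% ± 0.475 on DSS and 7.18% ± 1.5 on water (adjusted p = 0.907), Rikenellaceae_RC9_gut_group 2.27% ± 1.08 and 3.69% ± 1.16 (adjusted p = 0.322), and Rikenella 0.568% ± 0.294 and 0.535% ± 0.205 (adjusted p = 1). Desulfovibrio, which reduces sulfate to hydrogen sulfide, had 1.38%, 1.37%, 1.31% and 0.84% in KO DSS mice 1 to 4, against 0.189%, 0.108%, 0.243% and 2.34% in KO water mice 1 to 4. Water mouse 4 alone was above all DSS mice (adjusted p = 0.55), and without it Desulfovibrio was 6.81-fold higher on DSS (adjusted p = 0.00195). The family's total without that mouse was 1.28-fold higher (adjusted p = 0.621, against 0.905 with it). Bilophila, which reduces the sulfite of taurine, ran the other way in that mouse, with 0.715%, 0.276%, 0.362% and 0.172% in DSS mice, against 1.09%, 1.10%, 1.15% and 0.0933% in water mice (adjusted p = 0.276), or 2.92-fold lower without it (adjusted p = 0.0635). Among 4 reagent-associated genera tested, Pseudomonas and Acinetobacter rose (adjusted p = 0.038 and 0.0497), at 0.00466% and 0.007% on DSS and no count on water. Neither had a count in DSS mouse 1, and their calls were lost in 8 of 16 and 11 of 15 alternatives that gave an adjusted p, which DESeq2 did not for either. All reagent-associated genera together held at most 0.0384% of any DSS mouse.

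**Figure D3:**
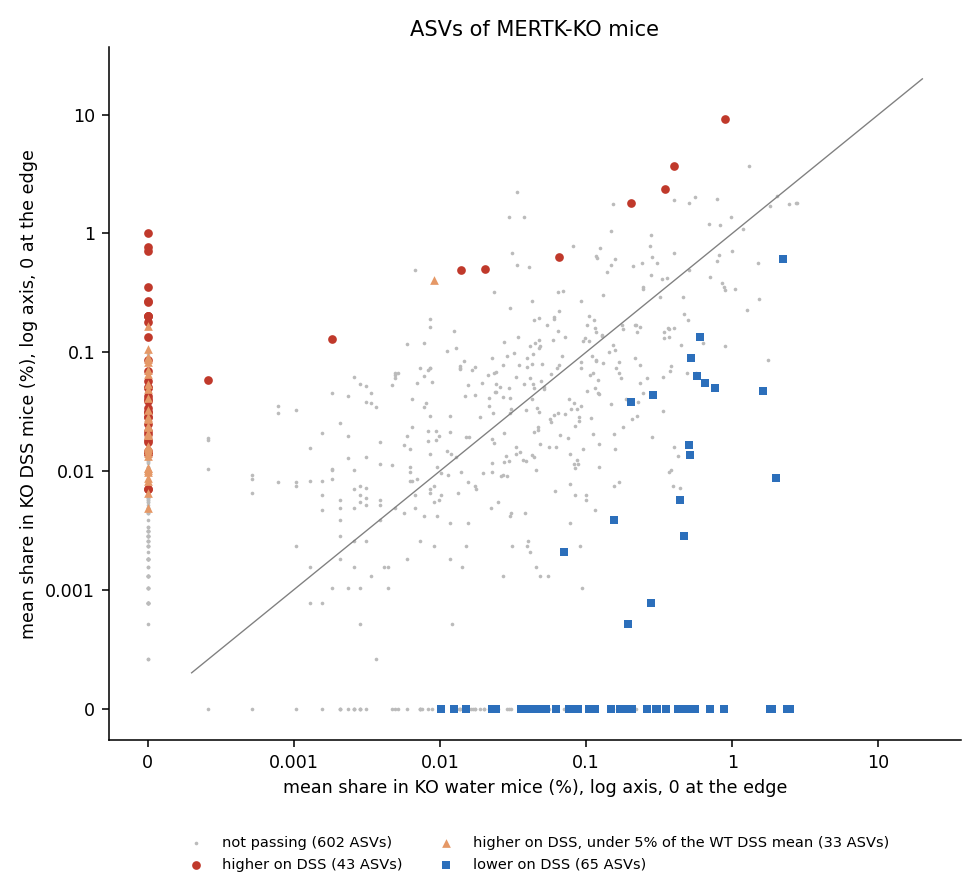
Mean share of each ASV in KO DSS mice against that in KO water mice, in percent on log axes with a share of 0 at the edge, and with risen ASVs (circles, or triangles where under 5% of the WT DSS mean), fallen ASVs (squares) and others (dots). Of the 76 risen ASVs 66 had no count on water, and of the 65 fallen ASVs 47 had no count on DSS.

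Single sequences also moved in opposite directions within a genus-level group. Of the 76 risen ASVs, 66 were absent from all KO water mice and 69 were present in all 4 DSS mice. Of the 65 fallen, 47 were absent from all KO DSS mice and 55 present in all 4 water mice, and 24 of the 65 were in no WT mouse. Calls fell in 44 genus-level groups, and in 7 of these ASVs of the same group were called in both directions. The 7 include unclassified Lachnospiraceae, Muribaculaceae, Oscillospiraceae and Ruminococcaceae, which pool ASVs without a genus name and are not single genera. The named ones are Alistipes, Lachnospiraceae_NK4A136_group and Parasutterella. Among the risen ASVs, 33 were at under 5% of their level in WT DSS mice. They include ASV1, the only risen ASV of Lachnospiraceae_NK4A136_group. The number of groups with calls both ways without these low ASVs was not counted. By family, Lachnospiraceae had 15 ASVs higher and 37 lower of 323 tested (16.1% called), Muribaculaceae 10 and 13 of 146 (15.8%), Rikenellaceae 5 and 5 of 37 (27.0%), and Oscillospiraceae 6 and 3 of 121 (7.44%), where 13.4% of all ASVs were called, 7.20% higher and 6.16% lower. The share over all ASVs includes those with no count in any KO mouse, which could not be called.

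**Figure D4:**
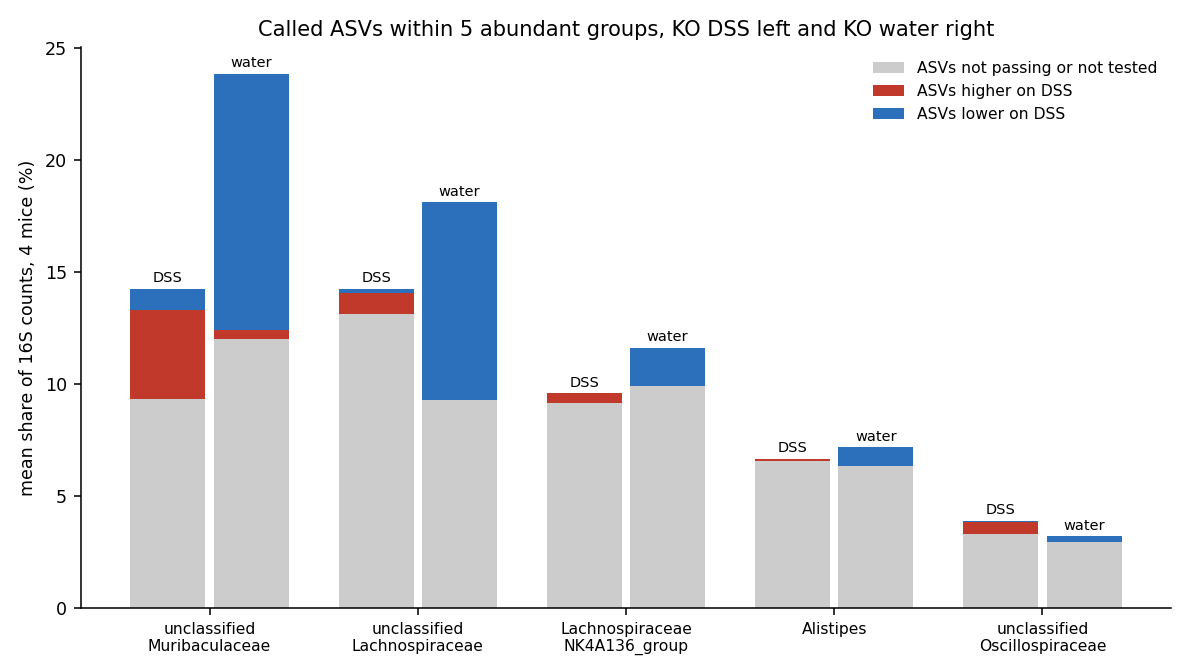
Mean share of counts (percent, 4 mice) of 5 abundant groups with ASVs called in both directions, as bars stacked from ASVs that did not pass or were not tested, risen ASVs and fallen ASVs, DSS left of water. In unclassified Muribaculaceae the risen ASVs held 3.99% on DSS and 0.401% on water, and the fallen ASVs 0.923% and 11.4%. In Lachnospiraceae_NK4A136_group the risen part is ASV1 alone, at under 5% of its level in WT DSS mice.

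Unclassified Muribaculaceae had 10 ASVs higher and 12 lower of 140 tested. ASV10 had 3.24%, 4.46%, 3.06% and 3.99% in KO DSS mice 1 to 4, against 0.0881%, 0.237%, 0.356% and 0.922% in KO water mice 1 to 4. It rose 9.21-fold without overlap (adjusted p = 0.00846), 16.2-fold without water mouse 4, and so gained while the pooled group fell. ASV46 had 3.36%, 1.80%, 2.33% and 0.0508% in water mice, and ASV49 had 3.05%, 2.11%, 2.04% and 0.0518%. Neither had a count in any DSS mouse or any WT mouse, and they were at least 606-fold and 583-fold lower (adjusted p = 0.00557 and 0.00545). The values of ASV46 and ASV49 ran side by side from mouse to mouse, both low in water mouse 4. ASV40 fell to 0.00881% ± 0.0102 on DSS, against 2.00% ± 0.48 on water (227-fold, adjusted p = 0.00343), or 340-fold without DSS mouse 2 or 3. ASV13 fell 3.62-fold (adjusted p = 0.0468), a call lost in 13 of 17 alternatives. Within this group the ASV make-up of a DSS mouse differed from that of a water mouse by a mean Bray-Curtis distance of 0.569, against 0.145 among DSS mice and 0.302 among water mice.

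Unclassified Lachnospiraceae, whose total did not pass, had 13 ASVs higher and 24 lower of 200 tested. The fallen ASVs held 0.161% on DSS and 8.85% on water, and the risen ones 0.946% on DSS and 0.000259% on water. ASV29 had 2.00%, 1.99%, 1.16% and 4.86% in KO water mice 1 to 4 and no count in any DSS mouse or WT mouse (at least 805-fold lower, adjusted p = 0.000664). It was the most abundant of all fallen ASVs. ASV103 fell to 0.0495% ± 0.0381, against 0.767% ± 0.292 on water (15.5-fold, adjusted p = 0.0209, or 23.9-fold without DSS mouse 4), a call lost without DSS mouse 3 or water mouse 3 (adjusted p = 0.0598 and 0.0538). ASV51 fell 34.6-fold (adjusted p = 0.0347), a call lost in 8 of 17 alternatives, 7 of them the loss of 1 mouse (adjusted p = 0.0537 to 0.0818). In the other direction ASV300 had 0.084%, 0.0301%, 0.619% and 0.0695% in DSS mice and none on water, at least 64.5-fold higher (adjusted p = 0.011), or at least 19.7-fold without DSS mouse 3. The make-up of unclassified Lachnospiraceae differed by 0.828 between DSS and water mice, against 0.598 among DSS mice and 0.497 among water mice.

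In other genus-level groups whose total did not pass, ASVs were also called both ways. In Lachnospiraceae_NK4A136_group, ASV1 rose and 5 ASVs fell of 50 tested, and the fallen ones held no count on DSS and 1.70% on water. ASV112 of that genus had 0.371%, 0.836%, 1.01% and 0.59% in KO water mice and none on DSS, at least 226-fold lower (adjusted p = 0.00712). ASV1, and ASV76 among the 3 risen ASVs of Alistipes, were at under 5% of their level in WT DSS mice, and neither call held when such low ASVs were set to 0 (adjusted p = 0.0508, with the direction turned, and 1). In Alistipes 3 ASVs fell of 25 tested: ASV161 fell to 0.0166% ± 0.0112 on DSS, against 0.509% ± 0.221 on water, and had no count in WT mice (adjusted p = 0.0365, a call lost in 10 of 17 alternatives, 7 of them without 1 mouse). In unclassified Oscillospiraceae, ASV31 rose 24.9-fold to 0.504% ± 0.244, against 0.0202% ± 0.012 (adjusted p = 0.00222), while ASV195 fell to 0.0384% ± 0.00501, against 0.202% ± 0.0825 (adjusted p = 0.044, lost in 13 of 17 alternatives, including without any 1 of the 8 mice). In unclassified Ruminococcaceae ASV360 rose to 0.129% ± 0.101 (adjusted p = 0.0468, lost in 10 of 17 alternatives, including without any 1 of the 8 mice), and ASV925 had no count on DSS and 0.0101% ± 0.00342 on water (adjusted p = 0.0194, but 0.0971 with no filter and 0.129 with a replicate block).

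Single sequences of other genera were among the most abundant that passed. ASV120 of Clostridia_UCG-014 had 0.674%, 1.02%, 0.338% and 0.817% in KO DSS mice and no count on water, at least 229-fold higher (adjusted p = 0.00846). ASV24 of Mucispirillum rose 6.72-fold to 2.35% ± 1.14, against 0.349% ± 0.205 (adjusted p = 0.011, but 0.0517 with no filter). ASV156 of Escherichia-Shigella rose 35.1-fold to 0.492% ± 0.0772, against 0.014% ± 0.0113 (adjusted p = 0.0112). Each of these was higher in all 4 DSS mice than in any water mouse. ASV78 of Odoribacter had 0.711%, 0.507%, 0.49% and 0.846% in DSS mice, against 0.101%, 0.0508%, 0.0549% and 0.056% in water mice (9.74-fold, adjusted p = 0.00222), so that it did not overlap although the genus did. ASV27, of Lachnospiraceae_UCG-001, was at least 757-fold lower (adjusted p = 0.0133), or at least 330-fold without water mouse 2. ASV99, of Roseburia, was in 3 of 4 water mice, at 0.0446%, 1.44% and 2.05%, and in no DSS or WT mouse (at least 284-fold lower, adjusted p = 0.0417). Its fall was at least 159-fold without water mouse 3, and the call was lost without any 1 of DSS mice 1 to 4 or water mice 1 to 3 (adjusted p = 0.0532 to 0.0936).

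**Figure D5:**
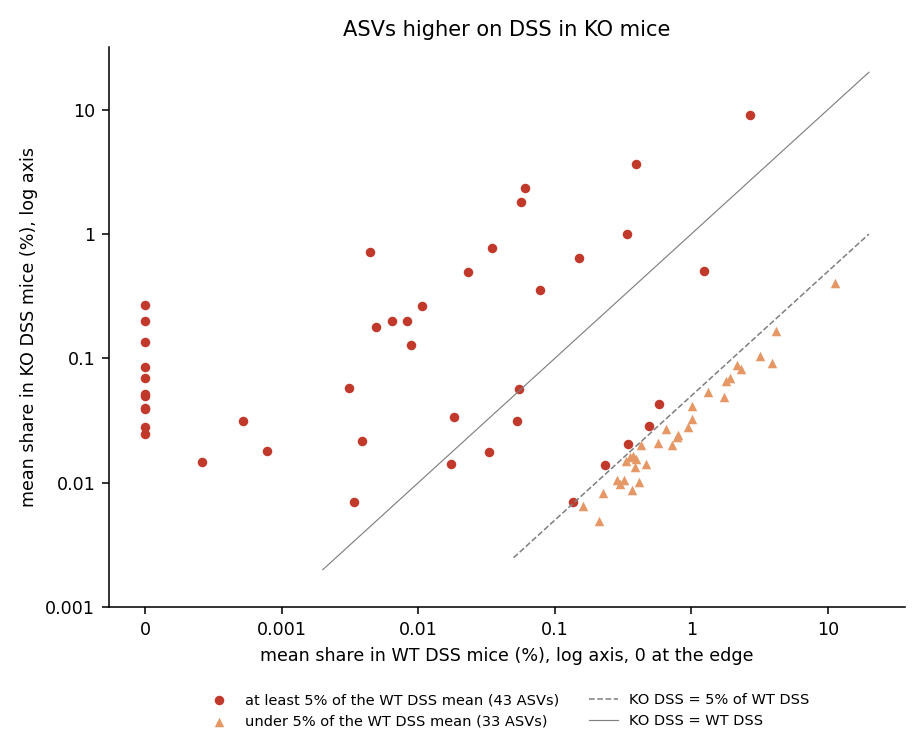
Mean share of each risen ASV in KO DSS mice against its mean share in WT DSS mice, in percent on log axes with a share of 0 at the edge, a dashed line at 5% of the WT DSS level and a solid line at equal levels. Of the 76 risen ASVs 33 lie under the dashed line, at 2.34% to 4.69% of the WT DSS level, and held 1.57% of KO DSS counts.

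A subset of the risen ASVs was abundant in WT DSS mice. Of the 76, 33 from 18 genera had a KO DSS mean under 5% of their WT DSS mean, a limit chosen with earlier results of these data known. Together they held 1.57%, 1.55%, 1.56% and 1.61% of counts in KO DSS mice 1 to 4, against 0.00907% ± 0.0132 in KO water mice, and 45.3% ± 6.94 in WT DSS mice. The sum was nearly the same in every KO DSS mouse, and 32 of the 33 were in no KO water mouse. Their ratio to the WT DSS mean had a median of 3.59% (2.34% to 4.69%), with its upper end set by the limit. ASV1 of Lachnospiraceae_NK4A136_group had 0.419%, 0.415%, 0.427% and 0.357% in KO DSS mice, against 0.028%, 0%, 0.00829% and 0% in KO water mice (adjusted p = 0.011), with 11.3% ± 8.54 in WT DSS mice, a 44.6-fold rise over KO water mice, or 130 times the 3-count floor without water mouse 1. ASV76 of Alistipes had 0.0352%, 0.0321%, 0.0321% and 0.0301% and no count in KO water mice (adjusted p = 0.00846), with 1.01% ± 0.198 in WT DSS mice. At like abundance (means of 20 to 200 counts), 20 ASVs under the limit had a median coefficient of variation of 24.7% among KO DSS mice, and 241 others 72.0%. Of the 21 risen genera, Helicobacter, Alloprevotella and Coriobacteriaceae_UCG-002 were under the limit, at 3.96%, 3.40% and 4.33% of WT DSS. With all ASVs under the limit in either DSS group set to 0, 64 ASVs passed, 26 higher and 38 lower, Helicobacter, Alloprevotella and Coriobacteriaceae_UCG-002 did not (adjusted p = 0.128, 1 and 1), and the difference in observed ASVs (DSS minus water) was -22.75 (exact permutation p = 0.0571). Whether these counts come from bacteria resident in KO mice or from other libraries was not tested. The other 43 risen ASVs held 23.8% ± 1.98 on DSS and 1.95% ± 0.374 on water.

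The DSS effect was compared with that in WT mice by the interaction of genotype and treatment, which 11 of 122 genera (9.02%), 8 of 57 families (14%) and 59 of 1056 ASVs (5.59%) passed. Without KO water mouse 4, 19 genera passed. Some taxa tested had no count in both DSS groups, such as A2 and Marvinbryantia, or in all KO mice, such as Corynebacteriaceae. Their interaction could not be estimated and could not pass, so the shares that passed do not measure how alike the genotypes responded. Roseburia had no count in KO DSS mice and 2.40% ± 1.31 in KO water mice, against 0.0143% ± 0.02 in WT DSS mice and 0.0609% ± 0.0466 in WT water mice (interaction, adjusted p = 0.00244). Escherichia-Shigella, at 0.532% in KO DSS mice and 0.014% in KO water mice, had 0.0231% ± 0.0074 in WT DSS mice and 0.0174% ± 0.0224 in WT water mice (interaction, adjusted p = 0.0291). That call was lost without KO DSS mouse 1 (0.0549), on centred log-ratios (0.0513) and with a replicate block (0.0507). Rikenellaceae_RC9_gut_group, one of 39 genera (32%) that passed in WT mice, rose there, with 3.08% ± 0.74 on DSS and 0.521% ± 0.266 on water, and did not pass in KO mice (interaction, adjusted p = 0.00363). Prevotellaceae as a family, which rose in KO mice, held 5.85% ± 2.56 in WT DSS mice and 4.65% ± 1.14 in WT water mice (interaction, adjusted p = 0.000195), although Prevotellaceae_UCG-001 alone rose in WT mice too, with 3.01% ± 0.864 and 0.31% ± 0.239 (interaction, adjusted p = 1). The coprostanoligenes group held 0.691% ± 0.495 in WT DSS mice and 0.479% ± 0.432 in WT water mice, where KO water mice had 0.000518% (interaction, adjusted p = 0.00244). Akkermansia had 0.0345% ± 0.0201 in WT DSS mice and no count in WT water mice. Its interaction did not pass (log2 difference 1.66, SE 3.13, adjusted p = 1). Turicibacter had 0.341% ± 0.075 in WT DSS mice and no count in either water group. Its interaction could therefore not be estimated (SE 2008 on the log2 scale, adjusted p = 1), and that test could not pass. A p that misses the threshold does not show that the DSS effects of the genotypes were alike. In WT DSS mice the means of Akkermansia and Escherichia-Shigella were under 5% of their KO DSS means. There 86 ASVs were under that limit, with 1.21% of the WT DSS counts. Whether these counts come from bacteria resident in WT mice or from other libraries was not tested.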

How the data were processed

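Bacteria of the distal colon were profiled by 16S sequencing in 16 mice, 8 of them KO. The authors deposited whole-number counts of 1901 ASVs in 2 tables with identical values, 1 with taxonomy, and per the file headers the table is "even": each library totals 96469 counts. The labels name neither the 16S region nor the ASV caller, the taxonomy source or the depth before that step. Equal totals limit every mouse alike, so that 1 count is the smallest step and 3 counts the limit for absence. The labels' protocols describe RNA extraction and RNA-seq libraries, and the submitters' processing notes list GRCm38 and mm10, neither of which applies to 16S counts, so whether DNA or RNA was the template is unknown. A rinse of the tissue to remove faeces is described in the labels' protocols.

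Counts were summed by genus and family, and filtered as the report states. The main test was edgeR 4.0.16 (glmQLFit robust, glmQLFTest) in R 4.3.3 with library totals as the only scaling, all 16 libraries in 1 fit, and Benjamini-Hochberg adjustment at an FDR of 0.05. It was also run on simulated counts with the same spread for all taxa, whose outcome is not reported here and supports no result. Per-mouse values were compared by two-sided exact permutation over 70 arrangements, and distances over 35 splits. A fold is a ratio of mean shares, written "at least" against 3 counts per library where a group had none, and left out where a mean lay between 0 and that floor. The median log2 ratios of the lists and of all genera instead used means raised to that floor. A genus under it in both groups therefore counts as 0. The settings tried were TMM, DESeq2's positive-count size factors, the DESeq2 1.42.0 test, centred log-ratios (pseudocount 0.5) in limma 3.58.1, no filter, 6 libraries, a replicate block, only KO libraries, ASVs under 5% of the other DSS group set to 0, and each KO mouse left out. Python 3.11.15, numpy 2.4.6, scipy 1.17.1, pandas 2.3.3 and matplotlib 3.10.9 were used for values and figures.

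Named genera were the 10 most raised and 10 most lowered of those called with at least 0.1% in a KO mean, the 10 most abundant, and list members with at least 0.5%. Families were those called with at least 0.1%, or with at least 1%. ASVs were the 10 most abundant called per direction and the leading one per direction in genus-level groups with calls both ways and at least 1% in a KO mean. Other calls named with list counts, the within-genus distances, the evenness measures and the variation at like abundance were chosen after values were seen. Members and lists were chosen with earlier results of these data known. The labels do not say that mice share no cage, so p-values measure the spread between these mice. The lists were butyrate producers, mucin degraders, mucus and epithelium, oxygen-tolerant genera, lactobacilli and bifidobacteria, Erysipelotrichales, Prevotellaceae, Rikenellaceae, Muribaculaceae, Desulfovibrionaceae, Lachnospiraceae, Oscillospirales, Coriobacteriia, wall-less and uncultured groups, and reagent-associated genera.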

Additional observations from a re-analysis of the deposited data

Results flagged for a closer look

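In 21 of 168 groups of 4 mice 1 mouse stood apart, its gap to the next mouse taking most of the group's range (Dixon's criterion). Its 5% rate holds for normally distributed values, which these shares need not be. A group with counts in 1 mouse only always meets it, and Desulfovibrio and its family were both counted. So the number of groups is a description and not a test. KO water mouse 4 accounted for 8 of the 21. It had 2.34% Desulfovibrio (other water mice 0.108% to 0.243%), 2.67% Desulfovibrionaceae (1.45% to 1.65%), 0.0933% Bilophila (1.09% to 1.15%), 0.671% Clostridia_vadinBB60_group (0.0311% to 0.118%), 0.654% Butyricicoccus (0.15% to 0.23%), 1.38% GCA-900066575 (0.219% to 0.305%), 0.027% Anaeroplasma (0%) and 0.00311% Helicobacter (0%). KO water mouse 1 had 20.3% Lachnospiraceae_NK4A136_group (7.84% to 9.48%), 0.99% A2 (0.0612% to 0.149%), 0.134% [Eubacterium]_siraeum_group (at most 0.00104%), 0.00207% [Eubacterium]_coprostanoligenes_group (0%) and 0.101% ASV78 (0.0508% to 0.056%). KO water mouse 3 had 0.00311% Akkermansia (0%).

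Among KO DSS mice, mouse 4 had 1.46% Butyricicoccus (0.234% to 0.369% in the others), 0.84% Desulfovibrio (1.31% to 1.38%) and 0% ASV161 (0.0207% to 0.0249%). Mouse 2 had 1.05% Colidextribacter (3.10% to 3.42%) and 0.0301% Bifidobacterium (at most 0.00207%), mouse 1 had 0.384% Blautia (0.0508% to 0.103%), and mouse 3 had 0.619% ASV300 (0.0301% to 0.084%).

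In edgeR's interaction test the difference between genotypes in the DSS effect, KO minus WT, passed for 13 of the named taxa. On the log2 scale it was 8.00 for [Eubacterium]_coprostanoligenes_group, 8.03 for Helicobacter, 4.83 for Escherichia-Shigella and -12.09 for Roseburia, where a group at or near 0 makes the fitted size no bound, and -3.27 for Rikenellaceae_RC9_gut_group. For families it was 4.70 for Enterobacteriaceae, -0.64 for Lachnospiraceae, 2.99 for Prevotellaceae and -1.18 for Rikenellaceae, and for ASVs -6.15 for ASV24, -5.65 for ASV39 (neither had a count in WT water mice, so the fitted size is no bound), 4.27 for ASV78 and -7.42 for ASV51. That of Lachnospiraceae was lost with TMM scaling (adjusted p = 0.525) and without KO DSS mouse 1, 2 or 4 or KO water mouse 1 or 2 (0.0518 to 0.0945), and that of Rikenellaceae with TMM scaling (0.136) and without KO DSS mouse 1 or 3 or KO water mouse 1 or 2 (0.0509 to 0.0684). Those of Helicobacter (0.37), ASV24 and ASV39 (1 each) were lost with ASVs under 5% of the other DSS group set to 0. That of ASV78 was lost with no filter (0.0593), that of Escherichia-Shigella on centred log-ratios (0.0513), with a replicate block (0.0507) and without KO DSS mouse 1 (0.0549), that of Enterobacteriaceae on centred log-ratios (0.0703) and without KO DSS mouse 1 or KO water mouse 2 (0.0559 and 0.0583), and that of ASV51 in 10 of 16 alternatives.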

How the results depend on the processing

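Over 91 named taxa and phyla and 1443 values under alternatives, 1319 kept direction and side of the threshold, 102 lost a call, 13 gained one and 9 turned. Called ASVs numbered 141, against 296 on centred log-ratios, 64 with ASVs under 5% of the other DSS group set to 0 ("low ASVs at 0") and 79 to 136 without 1 mouse; 93 rose and 50 fell with positive-count size factors, 127 and 72 with DESeq2. Genera with an interaction numbered 27 on centred log-ratios and 9 to 19 without 1 mouse, and ASVs with one 131 with DESeq2, 299 on centred log-ratios and 23 with low ASVs at 0. Observed ASVs differed by -22.75 with low ASVs at 0 and by 31.9 to 41 without 1 mouse. Counts in ASVs seen only on DSS were 7.14% with low ASVs at 0 and 8.20% to 10.7% without 1 mouse. Turned directions were those of Bacteroidota (-2.53, -0.616 and -0.382 points without KO DSS mouse 4, KO water mouse 1 or 2, over a range of -2.53 to 2.05), Desulfobacterota (-0.0156 without KO DSS mouse 1, over a range to 0.446), Helicobacter (-2.80), ASV1 (-6.16) and ASV76 (0) with low ASVs at 0, and Oscillospiraceae (-0.43) and Ruminococcaceae (-0.17) on centred log-ratios; the cause was not tested. Replicate numbers did not pair the mice (correlations of deviations 0.0551, -0.0146, -0.0427 and 0.0636, 2 of 4 mice best with their own number). With a replicate block 103 ASVs, 37 genera and 19 families passed, and 8 genera and 58 ASVs had an interaction. The main limits are 4 mice a group, shares in place of amounts, an unknown original depth, no cage labels and, for rare ASVs, the 3-count floor.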
